A study of Mus musculus with 23 samples.

Results

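The citric acid cycle enzymes examined here are the products of 9 genes: Cs, Idh2, Idh3a, Idh3b, Idh3g, Ogdh, Suclg1, Fh1 and Mdh2. They were chosen by name from the cycle, with earlier results of these data known. Every probe set (a group of short array probes for one transcript) whose platform symbol is exactly one of these names was taken. This gave 16 of the 22690 probe sets on the array and 9 of 12393 genes. All 9 genes were among the 9133 tested, and each lay above the filter on low values.

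Expression was measured with 1 Affymetrix array per sample, 23 arrays in 5 groups. The mice were female, of strain C57BL/6J and 77 days old, and the muscle came from the hind leg. The flight experiment set gastrocnemius of mice that flew for 11 days and 19 hours (spaceflight, n = 4) against gastrocnemius of mice kept for the same time in the animal enclosure module, the flight cage, on the ground (ground AEM, n = 4). The calf experiment held mice hung by the tail for 12 days, which takes the load off the hind legs, and then put back on their feet for 3.5 hours (reloaded, n = 5), mice hung for the same 12 days only (suspension, n = 5), and untreated mice (control, n = 5). Its tissue is labelled calf muscle, not gastrocnemius. Titles, source names and the series design give these groups, but the longer descriptions attached to the flight experiment's samples have the 2 groups the other way round. Should those be right, each flight difference below would change its sign.

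The citric acid cycle runs in the mitochondrial matrix. It oxidises the acetyl group of acetyl-CoA, made from pyruvate, fatty acids and amino acids, to CO2 and passes the electrons to the respiratory chain as NADH and FADH2. In skeletal muscle its enzymes are most abundant in oxidative fibres, and citrate synthase activity is a common measure of a muscle's oxidative capacity.

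The log2 signals were high on all 23 arrays, and the tissue carried all 6 skeletal muscle fibre markers (Ckm, Acta1, Mb, Pvalb, Tnnt3, Mylpf), of which 0 were called in any comparison. Of 3 heart markers, Myh6 and Nppa lay below the filter on low values. No probe set reads 0 on this log2 scale, so a low marker is one near background. Array range, the interquartile range of an array's log2 signals, was 2.75 to 2.91 in the flight experiment and 2.20 to 2.46 in the calf experiment, so levels were compared only within an experiment. Suspension replicate 8 had the smallest range, 2.20, and the main suspension results are also given without it.

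Before the values, the sequence upstream of 2 genes is shown: Idh2, the only one of the 9 genes that passed the test in any comparison, and Idh3g, whose upstream sequence holds one of the searched motifs. Both are the 250 bases before the annotated start in RefSeq's GRCm38.p6, given 5′ to 3′ on the gene's own minus strand, at chr7:80115351-80115600 for Idh2 and chrX:73786898-73787147 for Idh3g. Capitals mark the motif CCGGAAG, and Idh2 has no capitals because it holds none of the searched motifs.
Idh2: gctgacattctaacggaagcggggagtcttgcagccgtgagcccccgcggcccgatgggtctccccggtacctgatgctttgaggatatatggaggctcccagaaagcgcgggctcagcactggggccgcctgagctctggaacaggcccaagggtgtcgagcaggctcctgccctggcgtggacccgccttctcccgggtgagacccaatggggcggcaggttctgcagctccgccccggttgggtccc
Idh3g: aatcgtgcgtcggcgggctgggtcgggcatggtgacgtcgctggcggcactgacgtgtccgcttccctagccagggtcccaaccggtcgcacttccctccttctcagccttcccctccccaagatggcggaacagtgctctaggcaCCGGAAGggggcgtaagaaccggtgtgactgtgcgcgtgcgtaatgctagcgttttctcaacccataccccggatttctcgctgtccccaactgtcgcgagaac

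RefSeq windows were at hand for 8 of the 9 genes, 13 windows in all, and Idh3a had none. Each window, 250 bases before to 50 after the start, was searched on both strands for 3 motifs of factors known to act on genes of mitochondrial energy metabolism. The ETS motif CCGGAAG, which GABP binds, was in a window of 2 of the 8 genes, Idh3b and Idh3g, against 9.93% of all 27025 genes with a window. The motif AAGGTCA of the oestrogen-related receptors (ERR) was in a window of 1 gene, Ogdh, against 5.38% of all genes. The NRF1 motif was in a window of 0 of the 8 genes, against 5.19% of all genes. The matches did not overlap one another, and a match is a description of the letters, not a site in use.

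In spaceflight gastrocnemius, 0 of the 9 enzymes were called against ground AEM (limma, adjusted p under 0.05), while 5.64% of all tested genes were. All 9 differences lay below 0, between −0.24 and −0.015 on the log2 scale, with a median of −0.12. Over all tested genes the median was −0.012 and 53.0% lay below 0. The groups did not overlap for 3 of the 9, each lower in spaceflight, where 6% of all tested genes had groups that did not overlap in that direction. In whole muscle, fewer cells of a type and less RNA per cell cannot be told apart.

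Cs encodes citrate synthase, which joins acetyl-CoA to oxaloacetate. In spaceflight, Cs was 11.42, 11.48, 11.41 and 11.35 on replicates 8, 9, 10 and 11, against 11.49, 11.58, 11.46 and 11.50 on ground AEM replicates 1, 2, 3 and 4. The groups overlapped in a narrow band, and the difference was −0.09 ± 0.07 (SE, adjusted p = 0.523).

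Idh2 encodes the mitochondrial isocitrate dehydrogenase that makes NADPH. Its log2 signal on the same replicates was 11.07, 11.13, 11.10 and 10.69 in spaceflight, against 11.02, 11.09, 11.18 and 11.17 in ground AEM. A single spaceflight array, replicate 11, lay below the rest, and the other 3 fell within the ground AEM range. The difference was −0.12 ± 0.10 (SE, adjusted p = 0.550), and without replicate 11 it was −0.018.

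Idh3a, Idh3b and Idh3g encode the subunits of the NAD-dependent isocitrate dehydrogenase, of which the alpha subunit is catalytic and the beta and gamma subunits are regulatory. Idh3a was 11.66, 11.60, 11.44 and 11.66 in spaceflight, against 11.71, 11.88, 11.87 and 11.88 in ground AEM. Every spaceflight array lay below every ground AEM array, yet the difference of −0.24 ± 0.08 (SE, 0.845-fold) missed the threshold at an adjusted p of 0.106 in limma. Its 95% confidence interval ran from −0.42 to −0.07. The difference was called in the fit with an eBayes trend and robust estimation (adjusted p = 0.0219) and in the fit over all 23 arrays (adjusted p = 0.0448), 2 of 18 alternatives.

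Each of the 3 Idh3a probe sets separated the flight groups. Beside the one above, the second averaged 9.42 in spaceflight, with a difference of −0.30 (adjusted p = 0.0717), and the third averaged 10.42, with a difference of −0.19 (adjusted p = 0.148), in the limma fit of each probe set on its own. In that fit 0 of the 16 probe sets were called, against 6.5% of all probe sets tested, and 15 of the 16 lay below 0. Probe sets of one gene read the same RNA, so they do not count as further replicates.

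Idh3g was 11.22, 11.22, 11.11 and 11.08 in spaceflight, against 11.29, 11.31, 11.23 and 11.45 in ground AEM. Here too the groups did not overlap, but the margin was far under 1 SE, with the nearest arrays at 11.2245 and 11.2284. The difference was −0.16 ± 0.08 (SE, adjusted p = 0.281). On a second Idh3g probe set the groups overlapped, at 10.91 to 11.01 in spaceflight and 10.90 to 11.17 in ground AEM. Its means were 10.95 and 11.05. Idh3b was 10.65, 10.68, 10.60 and 10.42 in spaceflight, against 10.81, 10.69, 10.61 and 10.61 in ground AEM. These ranges overlapped (−0.09 ± 0.08, SE). A second, far dimmer Idh3b probe set ran the other way, at 7.45 on average in spaceflight and a difference of 0.25 (adjusted p = 0.206), the only one of the 16 probe sets above 0.

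Ogdh encodes the E1 component of the 2-oxoglutarate dehydrogenase complex, and it differed least. It was 10.86, 10.99, 10.97 and 10.69 in spaceflight, against 10.82, 10.73, 11.02 and 11.00 in ground AEM. The groups lay over each other (−0.015 ± 0.09, SE). Suclg1, the alpha subunit of succinyl-CoA ligase, was 11.01, 10.93, 10.78 and 10.93 in spaceflight, against 10.99, 11.12, 11.07 and 11.16 in ground AEM. Only spaceflight replicate 8 reached the ground AEM range, and the difference was −0.17 ± 0.08 (SE, adjusted p = 0.241).

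Fh1 encodes fumarase, which hydrates fumarate to malate. It was 10.91, 10.84, 10.89 and 10.80 in spaceflight, against 10.92, 11.01, 10.87 and 10.93 in ground AEM, a difference of −0.07 ± 0.07 (SE, adjusted p = 0.617). The ranges overlapped at their edges. Mdh2, the mitochondrial malate dehydrogenase that regenerates oxaloacetate, was 12.28, 12.29, 12.17 and 12.26 in spaceflight, against 12.54, 12.31, 12.47 and 12.40 in ground AEM. Its groups did not overlap, and the difference was −0.18 ± 0.08 (SE, adjusted p = 0.209). A second Mdh2 probe set differed by −0.025, so the probe sets of this gene did not give the same size.

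**Figure D1:**
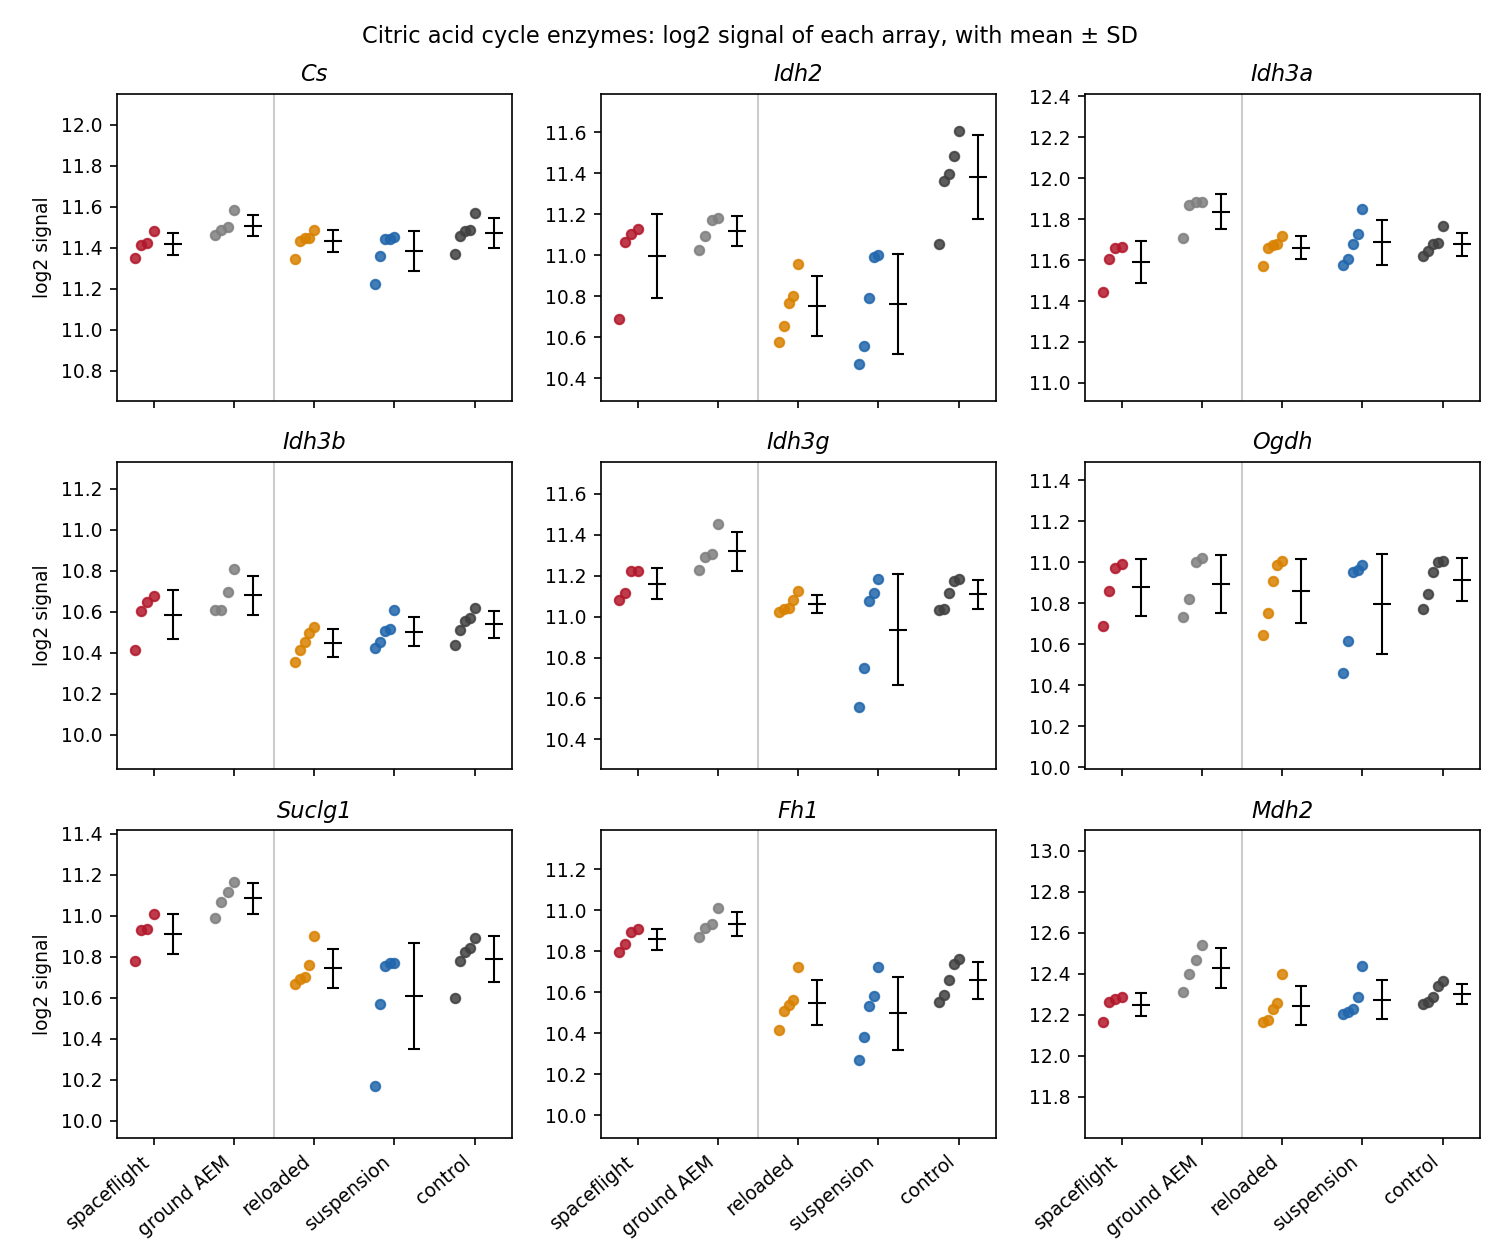
The log2 signal (vertical axes, the same span in every panel) of each of the 9 enzymes on each array, with the mean and SD of each group beside its points; the grey line parts the flight experiment from the calf experiment. Idh2 stands apart in the calf experiment, where the 5 reloaded and 5 suspension arrays lie below all 5 control arrays, while Idh3a, Idh3g and Mdh2 are the genes whose spaceflight arrays all lie below the ground AEM arrays.

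After 12 days of suspension, 1 of the 9 enzymes was called against control: Idh2, which fell. Only 1 probe set reads Idh2, so no other probe set could be set beside it. Among all tested genes 0.372% were called. Idh2 was 10.47, 10.79, 10.99, 11.00 and 10.56 on suspension replicates 8, 9, 11, 25 and 30, against 11.49, 11.61, 11.06, 11.36 and 11.40 on control replicates 1, 2, 19, 21 and 22. The groups did not overlap, which held for 1.34% of all tested genes in that direction, although the lowest control array, replicate 19, lay just above the highest suspension arrays. Means were 10.76 ± 0.24 in suspension and 11.38 ± 0.21 in control (SD, n = 5 each), a difference of −0.62 ± 0.11 (SE, 0.651-fold, adjusted p = 0.0147 in limma). Its 95% confidence interval ran from −0.86 to −0.38.

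The call on Idh2 depended on which suspension arrays were kept. Without suspension replicate 30 the difference was −0.57 with an adjusted p of 0.0523, and without replicates 8 and 9 together it was −0.53 with an adjusted p of 0.112. The direction was the same in all 22 alternatives, 20 of which kept an adjusted p under 0.05, with values from −0.70 to −0.52. Among the 22 is the main fit itself read at an adjusted p under 0.01, so its direction and p-value could not differ. At that threshold Idh2 was not called (adjusted p = 0.0147 in limma).

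The other 8 enzymes were not called in suspension. Their differences lay between −0.18 and 0.0091, and all 8 of their 95% confidence intervals held 0, within −0.39 to 0.15. Cs differed by −0.09, Idh3a by 0.0091, Idh3b by −0.04 and Mdh2 by −0.027. Suclg1 (−0.18), Idh3g (−0.17), Fh1 (−0.16) and Ogdh (−0.12) lay lower, each with an adjusted p of at least 0.619. The median over the 9 was −0.12, against 0.0026 over all tested genes.

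In Suclg1, Idh3g and Ogdh, replicates 8 and 9 were the lowest suspension arrays. Suclg1 was 10.17, 10.57, 10.76, 10.77 and 10.77 on suspension replicates 8, 9, 11, 25 and 30, against 10.78, 10.60, 10.82, 10.84 and 10.89 on control replicates 1, 2, 19, 21 and 22. Idh3g was 10.56, 10.75, 11.18, 11.12 and 11.08 in suspension, against 11.04, 11.03, 11.11, 11.17 and 11.18 in control. Ogdh was 10.46, 10.62, 10.95, 10.99 and 10.96 in suspension, against 10.77, 10.85, 11.01, 11.00 and 10.95 in control. In each of these 3 genes the suspension arrays other than 8 and 9 lay within the control range or close to it. Fh1 was 10.27, 10.53, 10.72, 10.58 and 10.38 in suspension, against 10.66, 10.58, 10.55, 10.74 and 10.76 in control. Here replicate 30 was low as well as replicate 8, and the difference was −0.10 both without replicate 8 and without 8 and 9.

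Replicate 8 was the lowest suspension array in 8 of the 9 enzymes and lay below the mean of the other 4 in 9 of 9, with a median deviation of −0.29. Over all tested genes, bright and dim together, its median deviation was −0.00084. Replicate 8 also had the smallest array range, 2.20, and the part of that range in the deviation was not tested. Markers on that array deviated as well, with a median of 0.29 over 5 adipocyte markers and −0.45 over 4 tendon and fibroblast markers. Such deviations were not particular to replicate 8. The tendon and fibroblast median was −0.63 on replicate 9 and 0.61 on replicates 11 and 30, and the adipocyte median was −0.28 on replicate 9. The part of these markers in the result was not tested. Without replicate 8 alone, the median over the 9 enzymes was −0.046 and Idh2 was −0.55 (adjusted p = 0.0387). With replicates 8 and 9 left out, the median over the 9 enzymes was −0.021, against −0.012 over all tested genes. Idh3g then differed by 0.017 and Ogdh by 0.05. Replicates 8 and 9 were the lowest suspension arrays in both genes, so leaving them out had to raise those differences. Idh2 without replicates 8 and 9 was still −0.53.

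**Figure D2:**
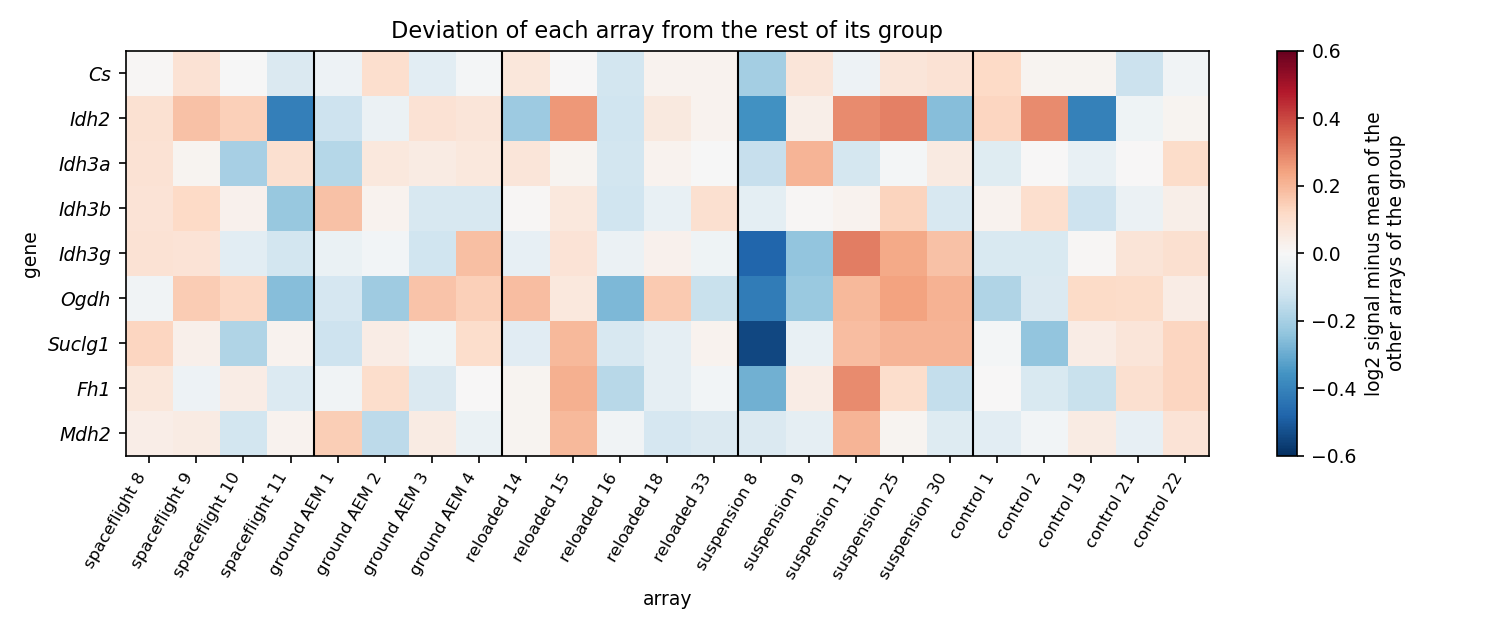
Each square is the log2 signal of one enzyme (rows) on one array (columns) minus the mean of the other arrays of its group; blue is lower and red is higher, on a scale of log2 units. Suspension 8 is blue in every row, deepest in Suclg1 (−0.55), while spaceflight 11 and control 19 deviate most in Idh2. Reloaded 16 also lies below the rest of its group in 9 of 9 enzymes, less deeply, with a median deviation of −0.11.

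In reloaded muscle, 1 of the 9 enzymes was called against control, and it was again Idh2; 0.318% of all tested genes were called. Idh2 was 10.58, 10.96, 10.65, 10.80 and 10.77 on reloaded replicates 14, 15, 16, 18 and 33, all below the 5 control values given above. Its mean was 10.75 ± 0.15 in reloaded and 11.38 ± 0.21 in control (SD, n = 5 each), a difference of −0.63 ± 0.11 (SE, 0.646-fold, adjusted p = 0.00986 in limma). The difference kept its direction and an adjusted p under 0.05 in all 21 alternatives, leaving out each array included, with a highest adjusted p of 0.0483 without reloaded replicate 14. Here too the main fit read at an adjusted p under 0.01 is among the alternatives, and its value could not differ. Among all tested genes 1.7% had reloaded arrays wholly below the control arrays. The 5 control arrays are shared with the suspension comparison, so the Idh2 differences there and here are not independent of each other.

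All 9 differences of reloaded from control lay below 0, where 58.2% of all tested genes did. The median was −0.06, against −0.018 over all tested genes. Apart from Idh2 the differences lay between −0.11 and −0.017, and their intervals, all of which held 0, lay between −0.29 and 0.17. Taken singly, 13 of the 16 probe sets lay below 0 and 3 above, so the common direction depended on the probe set that stood for a gene. Fh1 was 10.56, 10.72, 10.42, 10.51 and 10.54 in reloaded, against 10.66, 10.58, 10.55, 10.74 and 10.76 in control, and it had the most negative value after Idh2 (−0.11 ± 0.08, SE, adjusted p = 0.859). The ranges overlapped over most of their length.

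Between reloaded and suspension, 0 of the 9 enzymes were called, against 0.58% of all tested genes. Idh2 differed by −0.010 ± 0.11 (SE), with a 95% confidence interval from −0.25 to 0.23, so a change within those bounds over 3.5 hours could not be shown or dismissed at this number of arrays. The other 8 lay between −0.05 and 0.14, 5 of the 9 above 0. The median was 0.05, −0.021 without suspension replicate 8, and −0.06 without replicates 8 and 9. The 2 Mdh2 probe sets gave −0.03 and 0.20.

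The flight effect was set against each calf effect as a difference of differences over all 23 arrays. Against suspension, 0 of the 9 enzymes were called, where 1.27% of all tested genes were, and against reloaded 0 of the 9, where 2.74% were. Idh2 had the largest value in both, 0.50 ± 0.16 (SE, adjusted p = 0.154) against suspension and 0.51 ± 0.16 (SE, adjusted p = 0.100) against reloaded. The Idh2 difference in flight is therefore not shown to be unlike that in the calf experiment at the threshold used. The second of these was called with array weights (adjusted p = 0.0356), without control replicate 19 (adjusted p = 0.0442) and without spaceflight replicate 11 (adjusted p = 0.0379). Idh3a lay on the other side, with −0.25 ± 0.10 (SE, adjusted p = 0.273) against suspension and −0.23 ± 0.10 (SE, adjusted p = 0.291) against reloaded. The muscles of the 2 experiments carry different labels, which the design confounds with this difference.

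A list of the cycle's other genes gave 8 that were tested. In spaceflight, 0 of the 8 were called and 6 lay below 0, with a median of −0.11; Sdhc (−0.19) and Sdha (−0.18), subunits of succinate dehydrogenase, had the most negative values. In suspension, 0 of 8 were called, but all 8 lay below 0, with a median of −0.23, and 6 had an unadjusted p under 0.05, against 8.65% of all tested genes. Suclg2, the GTP-specific partner of Suclg1, differed by −0.31 (adjusted p = 0.314), and Dld, the E3 component shared by 2-oxo acid dehydrogenases, by −0.29 (adjusted p = 0.572). In reloaded against control, 0 of 8 were called with a median of −0.10, and against suspension 0 of 8 with a median of 0.14 and all 8 above 0. Without suspension replicate 8 these medians were −0.14 in suspension, with 8 of 8 below 0, and 0.065 in reloaded against suspension, with 8 of 8 above 0. Without replicates 8 and 9 they were −0.07, with 7 of 8 below 0, and −0.0079, with 4 of 8 above 0, in an alternative added after the data were seen. No other gene of the cycle reached the size of the Idh2 difference in the calf experiment.

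**Figure D3:**
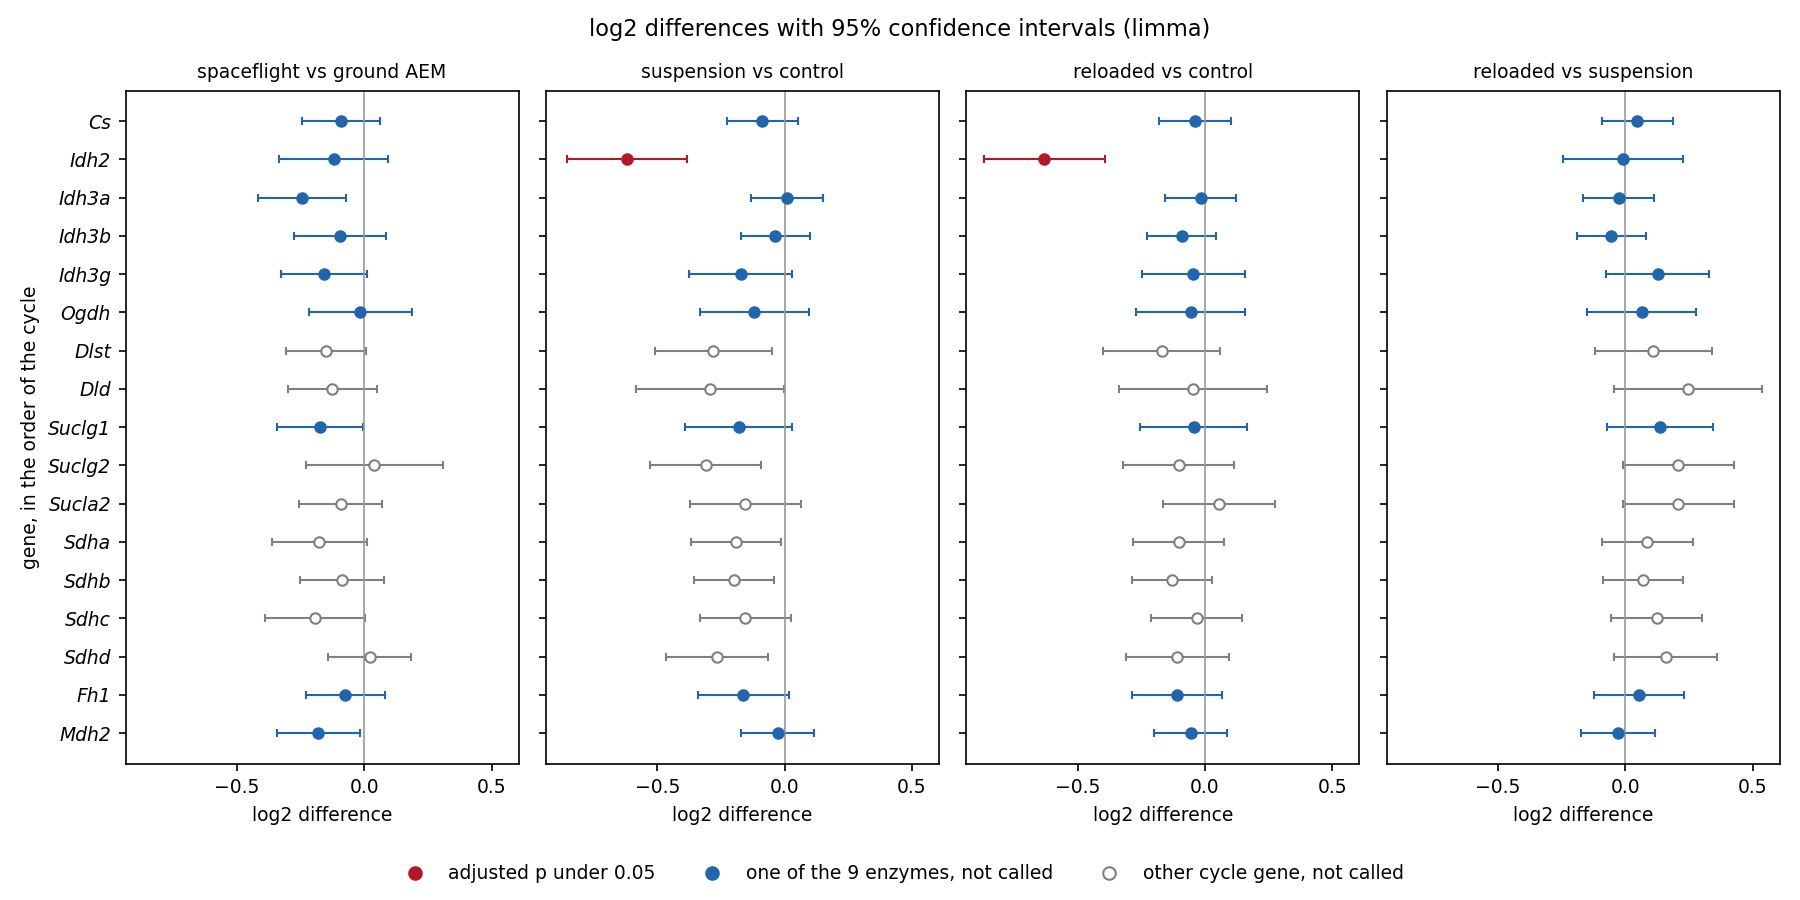
Log2 differences (horizontal axes) with 95% confidence intervals for the 9 enzymes and the 8 other tested genes of the cycle, in the order of the cycle from top to bottom, in 4 comparisons. Idh2 in suspension (−0.62) and in reloaded (−0.63) against control are the 2 red points; the other points lie nearer to 0.

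At the entry to the cycle, the pyruvate dehydrogenase component Dlat (E2) fell in spaceflight. It was 9.48, 9.57, 9.44 and 9.25 on spaceflight replicates 8, 9, 10 and 11, against 9.75, 9.68, 9.74 and 9.89 on ground AEM replicates 1, 2, 3 and 4 (−0.33 ± 0.09, SE, adjusted p = 0.0421). It was the 1 of 9 tested genes of the pyruvate list that was called in flight, and 0 of 9 were called in each calf comparison. Pdk4, the kinase that switches pyruvate dehydrogenase off, differed by 0.10 in spaceflight, −0.69 in suspension, 0.05 in reloaded against control and 0.74 in reloaded against suspension, with an adjusted p of at least 0.474 in each. Its differences of effects, 0.79 against suspension and 0.05 against reloaded, were not called either.

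A further list held enzymes, mostly outside the mitochondrion, that work on the same metabolites. Acly, the cytosolic ATP-citrate lyase that splits citrate for fat synthesis, rose in spaceflight (0.64 ± 0.10, SE, adjusted p = 0.0025), the 1 of 5 tested genes of its list that was called. It was 9.04, 8.87, 8.72 and 8.76 in spaceflight, against 8.01, 8.41, 8.25 and 8.17 in ground AEM, with no overlap. Idh1, the cytosolic counterpart of Idh2, was 8.15, 7.93, 7.76 and 7.73 in spaceflight, against 7.51, 7.55, 7.54 and 7.61 in ground AEM, and at an adjusted p of 0.0503 it missed the threshold (0.34 ± 0.09, SE). In suspension Idh1 differed by 0.30 (adjusted p = 0.302) and Mdh1, the cytosolic counterpart of Mdh2, by −0.26 (adjusted p = 0.238); 0 of 5 were called in each calf comparison. Of 6 tested genes of anaplerosis and the malate-aspartate shuttle, 1 was called in flight, Slc25a10, the mitochondrial dicarboxylate carrier, which rose by 0.46 ± 0.11 (SE, adjusted p = 0.0343), and 0 in the calf comparisons.

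Adipocyte markers moved with spaceflight: 4 of 5 were called higher (Adipoq, Retn, Lipe and Cidec), and their summed linear signal was 3438 to 4208 in spaceflight, against 2354 to 2640 in ground AEM. Acly, Slc25a10 and Idh1 are also known in fat tissue, and the part of these markers in the results was not tested. Tendon and fibroblast markers moved as well, with 2 of 4 called lower (Col1a1 and Col3a1) and sums of 1463 to 2230 in spaceflight against 1969 to 3948 in ground AEM; their part was not tested. Endothelial sums were 632 to 679 in spaceflight and 693 to 723 in ground AEM, with Kdr the 1 of 4 called, lower. Of these 4 endothelial markers, 2 lay above 0 and 2 below. The single tested erythroid marker, Alas2, was called lower. Of 4 macrophage markers 0 were called.

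Among the known regulators of mitochondrial genes, Ppargc1a, a coactivator of oxidative metabolism, fell in spaceflight by 1.23 ± 0.14 (SE, adjusted p = 0.000322). It was 8.37, 8.34, 8.11 and 8.11 in spaceflight, against 9.46, 9.71, 9.69 and 8.98 in ground AEM. The fatty acid receptor Ppara fell by 0.82 ± 0.16 (SE, adjusted p = 0.0104), and these were the 2 of 11 tested regulators called in flight. The 9 enzymes, with a median of −0.12 and 0 called, differed far less than Ppargc1a. The part of Ppargc1a in the enzymes' values was not tested.

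In the calf experiment Ppargc1a rose in reloaded against suspension (1.29 ± 0.27, SE, adjusted p = 0.0261), the 1 of 11 regulators called there, where the Idh2 difference was −0.010. Its reloaded values spread widely, at 9.41, 8.17, 7.63, 8.18 and 6.89 on replicates 14, 15, 16, 18 and 33, against 6.61, 6.65, 7.12, 6.74 and 6.73 on suspension replicates 8, 9, 11, 25 and 30. Reloaded replicate 14, the highest in Ppargc1a, was the lowest of its group in Idh2. This is 1 array, and the relation of Ppargc1a to Idh2 was not tested. Ppargc1a differed by −0.04 in suspension against control and by 1.25 in reloaded against control (adjusted p = 0.0560), comparisons in which 0 of 11 regulators were called. Its flight effect minus its reloaded effect was −2.48 (adjusted p = 0.00017), and minus its suspension effect −1.19 (adjusted p = 0.131). Ppara was also called in the first of these (−0.81, adjusted p = 0.0284). Esrra, the receptor that binds the ERR motif, differed by −0.15 in spaceflight, −0.22 in suspension, 0.21 in reloaded against suspension, −0.015 in reloaded against control, 0.07 for flight minus suspension and −0.13 for flight minus reloaded, none of them called.

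In the calf experiment slow fibre genes lay lower beside Idh2. All 7 of the listed slow fibre genes lay below 0 in suspension against control, with a median of −0.31, and 1 of the 7 was called, Myl3, a slow myosin light chain (−0.47 ± 0.09, SE, adjusted p = 0.0143). Their summed linear signal was 19405 to 30599 in reloaded, 21163 to 26517 in suspension and 29306 to 32494 in control. In reloaded against control 7 of 7 also lay below 0, with a median of −0.29 and 0 called. In reloaded against suspension 6 of 7 lay above 0 and 0 were called. Without suspension replicate 8 the suspension median was −0.31 with 1 of 7 called, and without 8 and 9 it was −0.30 with 0 called. In spaceflight the sum was 14479 to 21666, against 17294 to 20615 in ground AEM, with 1 of 7 called, Myl2, lower (−0.42 ± 0.10, SE, adjusted p = 0.0236). Of the 7 genes, 4 lay above 0 in spaceflight against ground AEM and 3 below, with a median of 0.019.

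Array by array, the lowest slow fibre sum and the lowest Idh2 fell together in 3 of the 5 groups. In spaceflight this was replicate 11, with a sum of 14479 and an Idh2 of 10.69, in ground AEM replicate 1, and in reloaded replicate 14, with 19405 and 10.58. Reloaded replicates 18 and 33 went against such an order between groups: their sums, 30599 and 29590, lay in the control range, while their Idh2 values, 10.80 and 10.77, lay below every control array. The part of the slow fibre genes in the Idh2 result was not tested. Of the 4 myosin heavy chain genes (Myh1, Myh2, Myh4 and Myh7) 0 were called in any comparison, and Myh2, of oxidative fast fibres, came closest in suspension (−0.35, adjusted p = 0.0570).

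**Figure D4:**
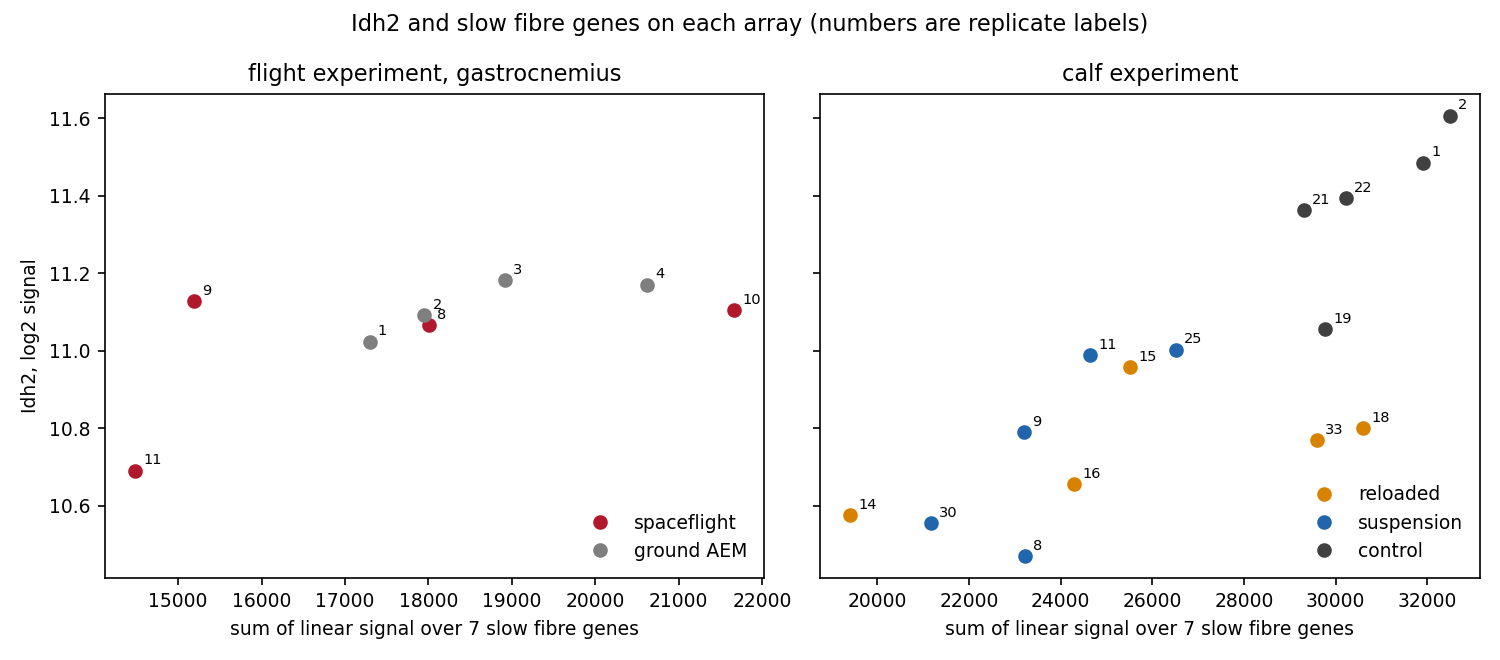
Idh2 (log2 signal, vertical) against the sum of linear signal over 7 slow fibre genes (horizontal) on each array, with replicate numbers; the flight experiment is on the left and the calf experiment on the right. Reloaded 18 and 33 lie at slow fibre sums of 30599 and 29590, among the control arrays, but below all of them in Idh2.

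Schwann cell markers were higher in suspension, where Mbp was the 1 of 2 tested that was called (1.87, adjusted p = 0.0287), and 0 of 2 were called without suspension replicate 8. Their sums were 1000 to 5046 in reloaded, 2593 to 4391 in suspension and 1078 to 1455 in control. Adipocyte sums were 2187 to 3371 in reloaded, 2603 to 3511 in suspension and 2236 to 2843 in control, with 0 of 5 called. Tendon and fibroblast sums were 3165 to 5109 in reloaded, 2224 to 4510 in suspension and 3671 to 5386 in control, with 0 of 4 called. The part of these markers in the Idh2 result was not tested.

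Within groups the enzymes varied together to different degrees. Over deviations from group means, the median correlation of the 36 pairs was 0.39 on the 15 calf arrays and 0.15 on the 8 flight arrays. The closest pair on the calf arrays was Idh3g and Suclg1 (r = 0.895), and on the flight arrays Idh3a and Suclg1 (r = 0.909). Without suspension replicates 8 and 9 the calf median was 0.21, and the closest pair was then Idh2 and Idh3b (0.785). These values describe arrays that share a scale and tissue make-up.

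The genes most like the mean of the 9 enzymes were taken as the 5 highest Pearson correlations among tested genes outside the list. On the 15 calf arrays these were Ndufb3 (r = 0.957), Ost4 (0.942), Pmpcb (0.915), Fkbp4 (0.914) and Atp5pb (0.913). With suspension 8 and reloaded 16 left out, Ndufb3 stood at 0.902 and the other 4 between 0.716 and 0.802. On the 8 flight arrays they were Mllt11 (0.983), Golga3 (0.971), Camk2d (0.967), Dlat (0.961) and Sema6d (0.960). For Idh2 alone, a choice made after its values were seen, the closest genes on the calf arrays were Ldhb (0.955), the heart-type subunit of lactate dehydrogenase, Phyh (0.902), Etfa (0.895), Mrpl4 (0.885) and Nudt8 (0.882). Differences between groups enter all of these values.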

How the data were processed

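Expression was measured on Affymetrix arrays in 23 mouse muscle samples. The authors deposited 1 table of log2 signals; the tools named are RMA and MAS5 (per the submitters' processing notes), and what each was used for, any version and a genome build were not given in the sources used here. The deposited log2 values were not normalized again. All value columns of the table were matched to samples by title, and 0 were left unused.

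Control probe sets (64) were left out, and the platform table gave 20380 probe sets 1 symbol. The brightest probe set on average stood for a gene, which was tested if its log2 signal exceeded 5.83, the table's 40th percentile, on at least 4 arrays; this kept 9133 of 12393 genes. Groups were compared with limma 3.58.1 (lmFit, eBayes, two-sided) in R 4.3.3. The 8 flight arrays had a fit to themselves, the 15 calf arrays another with 1 spread for the 3 groups, and differences of effects used all 23 arrays. Calls were made at an adjusted p under 0.05 (Benjamini-Hochberg, 9133 genes). The fits were tested on simulated data.

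The rule for named genes took all 9 members, the called genes of each context and marker list, up to 2 others per list, and Pdk4, Ppargc1a and Esrra throughout. The members and lists were chosen with earlier results of these data known. Alternatives were no filter, a filter at the 60th percentile, averaged probe sets, each probe set on its own, quantile normalization within each experiment, centred arrays, eBayes with a trend and robust, weights for arrays, an adjusted p under 0.01, array range as a covariate, fits over all 23 arrays or only the groups compared, and leaving out arrays; for the gene lists, leaving out suspension arrays was chosen after seeing the data. Whether replicates were different animals is not in the labels, and p-values therefore cover only the spread between these samples, which may be technical; the number of arrays limits the precision. Promoter windows are RefSeq's for GRCm38.p6; coordinates of other features are not given, since the files name no build.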

Additional observations from a re-analysis of the deposited data

Results flagged for a closer look

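Among 45 combinations of an enzyme and a group, 2 held an array far from the others of its group; chance alone gives about 1 in 20. In spaceflight, replicate 11 was the lowest in Idh2, at 10.69, with the nearest array at 11.07. Without it the flight difference of Idh2 was −0.018, against −0.12 with it, and neither was called. In ground AEM, replicate 1 was the lowest in Idh3a, at 11.71, with the nearest array at 11.87. It lay nearest to the spaceflight arrays, and without it the flight difference of Idh3a was −0.29 (limma, adjusted p = 0.0649), against −0.24 with it.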

How the results depend on the processing

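Directions and calls were recomputed under each alternative; a change of sign was counted only where a value exceeded 1 SE in one of the fits or was called. Of the values of single enzymes under alternatives, 1221 kept their side of the threshold with no change of sign counted by this rule. By the same rule 13 changed sign, while 5 passed the threshold and 3 no longer did. The cause was not tested. The 1221 include small changes of sign, such as Idh3a in suspension, at 0.0091 in the main fit and −0.0075 without arrays 8 and 9. With each gene's probe sets averaged, Idh3b was 0.077 in spaceflight and 0.012 in reloaded against control, and Mdh2 was 0.0868 in reloaded against suspension. With array weights, Ogdh was 0.0087 in suspension and Idh3g −0.0039 in reloaded against suspension, and with array range as a covariate the flight minus suspension difference of Idh3g was −0.13. Without suspension arrays 8 and 9 together, Idh3g was 0.017 and Ogdh 0.0524 in suspension, and Idh3g −0.0629, Ogdh −0.11 and Suclg1 −0.022 in reloaded against suspension. In that setting the flight minus suspension difference was −0.18 for Idh3g and −0.15 for Suclg1, and the median over the 9 enzymes was −0.021 in suspension and −0.0629 in reloaded against suspension. The number of enzymes called in spaceflight was 1 with the eBayes trend and in the fit over all 23 arrays. For flight minus reloaded it was 1 with array weights, and 0 to 1 when single arrays were left out. In suspension it was 0 at an adjusted p under 0.01 and without arrays 8 and 9, and 0 to 1 when single arrays were left out. The share of all tested genes called in each of these settings is not given here. A moved count is therefore not shown to be particular to the enzymes. No paired analysis was possible because the groups compared share no replicate numbers in the labels. With 4 or 5 arrays a group, standard errors of 0.06 to 0.11 in the comparisons of groups set what could be called, so small differences of the other 8 enzymes in either direction could not be shown.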
